A study of Homo sapiens with 9 samples.

Results

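ChIP-seq of 4 SWI/SNF subunits was performed on HepG2 cells, an established human hepatocellular carcinoma line. The 9 libraries were 2 replicates for each of ARID1A, ARID1B, ARID2 and SNF5 plus 1 input, all from this line, for which the labels give no treatment and no genetic change. The deposited lists hold peaks called on the merged replicates, so no value below carries an error between replicates, the library depths are unknown, and a subunit cannot be told apart from its antibody and its depth. The members described here are the broad SNF5 domains, the SNF5 peaks of 3000 bp or more. They were chosen by a measured value, the width of the SNF5 peak, which is therefore given as a description. This width picked 300 of 20718 SNF5 peaks (1.45%), and these 300 covered 1.21 Mb of the 15.5 Mb under all SNF5 peaks (7.80%).

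SWI/SNF complexes use ATP to move or evict nucleosomes. SNF5 (BAF47, SMARCB1) is a core subunit shared by several forms of the complex, whereas ARID1A and ARID1B are alternative subunits of the BAF form and ARID2 belongs to the PBAF form. A wide stretch of SNF5 signal can therefore hold more than one form of the complex, and the ARID peaks inside it show which forms were called and where. Wide stretches of regulator binding are known around promoters of active genes and at clustered enhancers.

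The domains were 3006 to 10497 bp wide, with a median of 3596 bp and quartiles of 3252 and 4394 bp. Of these, 99 were at least 4000 bp, 48 at least 5000 bp, and 2 at least 10000 bp. The 3 narrowest members lay near HIC2 on chromosome 22 (3008 bp, a domain with a near-identical copy elsewhere), near TMEM17 on chromosome 2 (3006 bp) and in TRAK1 on chromosome 3 (3006 bp). Just below the threshold were peaks at FBXO36 and TRIP12 (2997 bp), at GTF2I (2995 bp) and near ADGRG6 (2992 bp). The values on both sides of the threshold ran on without a gap, and the peak at FBXO36 and TRIP12 held 4 ARID1A, 1 ARID1B and 3 ARID2 peaks, against 1, 3 and 2 in the domain near TMEM17.

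The widest domain (chr17:57914556-57925052, hg19, 10497 bp) ran over the last exons of VMP1, which encodes an autophagy protein, and the whole of MIR21, which encodes a microRNA abundant in many carcinomas. The next but one in width (chr20:30191254-30200645, 9392 bp) spanned ID1, an inhibitor of basic helix-loop-helix transcription factors, and MIR3193. In all, 8 microRNA genes started inside a domain, and each of the 8 matched a RefSeq entry. The share among all annotated microRNA genes was not computed, so this count cannot be called high or low. The mature microRNAs of these 2 domains are shown because the deposited annotation assigned most of their ARID peaks to MIR21 or MIR3193, with the seed (bases 2 to 8) in capitals, as RefSeq gives them on GRCh38.p14.
hsa-miR-21-5p: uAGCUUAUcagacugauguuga
hsa-miR-3193: uCCUGCGUaggaucugaggagu

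The sequences of 3 short ARID peaks in the widest domains, all outside annotated exons, are printed because each holds one of the motifs searched. Of 68 such peaks of at most 300 bp in the named domains, 4 held a motif, so the printed ones are not typical of the rest. The capitals mark the match in the hg19 plus strand. The first is an ARID1B peak (chr17:57920584-57920742) with an AP-1 match, distal of MIR21 and 6108 bp into the domain. The second is an ARID1B peak (chr20:52209690-52209867) with a FOXA match in the ZNF217 domain, 597 bp from the start of ZNF217. The third is an ARID2 peak (chr17:70118129-70118352) in an intron of SOX9 with a match to the SP and KLF motif.
MIR21, ARID1B: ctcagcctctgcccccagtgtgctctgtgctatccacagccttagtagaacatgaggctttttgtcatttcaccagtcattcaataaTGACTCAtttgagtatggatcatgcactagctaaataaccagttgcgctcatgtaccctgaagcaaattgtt
ZNF217, ARID1B: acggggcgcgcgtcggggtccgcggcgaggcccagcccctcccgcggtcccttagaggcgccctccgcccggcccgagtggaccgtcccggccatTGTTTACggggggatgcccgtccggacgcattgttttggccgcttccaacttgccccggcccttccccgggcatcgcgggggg
SOX9, ARID2: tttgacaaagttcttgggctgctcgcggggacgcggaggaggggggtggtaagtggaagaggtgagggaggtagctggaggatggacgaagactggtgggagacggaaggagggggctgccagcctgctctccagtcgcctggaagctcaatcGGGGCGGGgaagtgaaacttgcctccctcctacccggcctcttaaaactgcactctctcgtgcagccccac

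Nearly every domain held ARID peaks. ARID2 peaks overlapped 285 of the 300 domains by at least 1 bp (95%, Wilson 95% confidence interval 91.9 to 96.9), ARID1A peaks overlapped 280 (93.3%, 89.9 to 95.6) and ARID1B peaks overlapped 259 (86.3%, 82.0 to 89.8). Among all SNF5 peaks these shares were 32.0% for ARID2, 35.2% for ARID1A and 21.6% for ARID1B. All 3 ARIDs were present in 241 domains (80.3%) and at least 1 in 296 (98.7%), against 10.1% and 50.9% of all SNF5 peaks. The intervals cover counting error over peaks only. A wide peak has more bases to be overlapped, so these shares rise with width by construction. In SNF5 peaks of 2000 to under 3000 bp they were already 84.4% for ARID2, 83.9% for ARID1A and 67.9% for ARID1B.

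The remaining 59 domains were mostly those without ARID1B. ARID1A with ARID2 occurred in 33, ARID1B with ARID2 in 8 and ARID1A with ARID1B in 5. Only ARID1B was found in 5 domains, only ARID2 in 3 and only ARID1A in 1, the domain at CFL1, which encodes the actin regulator cofilin, with 4 ARID1A peaks. The 3 domains with ARID2 alone lay near CP, which encodes ceruloplasmin, in B4GALT5 and in KANK1, each with 2 peaks. No ARID peak was found in 4 domains. They were 5053 bp at the start of TMEM37, 3552 bp at the start of TRAF3IP2, 3272 bp in SDC1 and 3226 bp in UTRN, with scores of 18, 17, 15 and 22 against a median of 26 over the domains. The score is a whole number given for each SNF5 peak in the deposited list, and its meaning is not given in the sources used here.

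The domains contained 745 ARID1A, 597 ARID1B and 832 ARID2 peaks, which were 5.80%, 6.84% and 6.40% of the respective lists. A domain held a median of 7 ARID peaks (quartiles 5 and 9, highest 28), with medians of 2 for ARID1A, 2 for ARID1B and 3 for ARID2. Per kb of SNF5 peak, the domains held 0.615 ARID1A, 0.493 ARID1B and 0.687 ARID2 peaks. SNF5 peaks of 1000 to under 3000 bp held 0.602, 0.398 and 0.606 per kb. The count of ARID1A peaks thus followed length closely, and the gap in density was widest for ARID1B. These densities are a description, since neighbouring peaks of a domain are not independent.

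**Figure D1:**
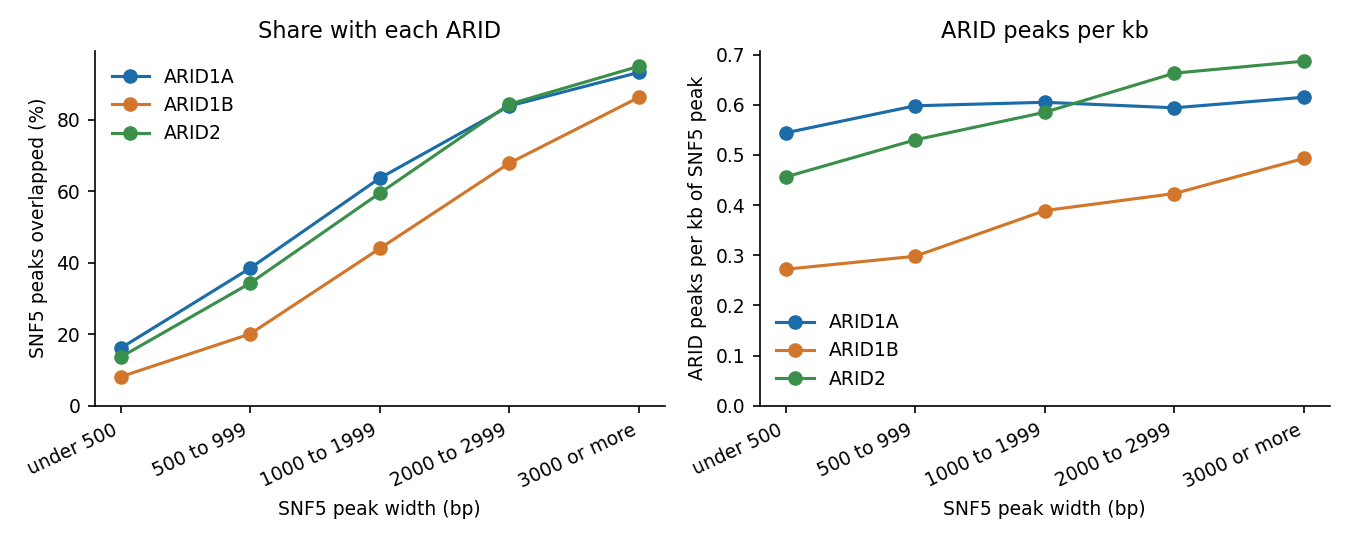
Share of SNF5 peaks overlapped by each ARID list (left, %) and number of ARID peaks per kb of SNF5 peak (right), in 5 classes of SNF5 peak width in bp; each point is 1 class and no replicate error exists. The shares climb to 93.3%, 86.3% and 95% in the 300 domains, while the ARID1A density stays between 0.544 and 0.615 per kb.

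ARID peaks also covered more of the sequence of the domains. Of all bases in the domains, 32.2% lay under ARID1A, 14.6% under ARID1B and 28.0% under ARID2 peaks, and 49% under at least 1 of them. In SNF5 peaks of 1000 to under 3000 bp these values were 22.2%, 10.0%, 17.7% and 36.1%. A single domain was covered between 0% and 93.6%, with a median of 49%. Bases under all 3 lists made up 5.16% of the domains against 2.18% of the SNF5 peaks of 1000 to under 3000 bp, and 168 domains (56.0%) held at least 1 such base, against 803 of the 4566 SNF5 peaks of 1000 to under 3000 bp (17.6%). This share, too, can rise with width alone. These shared stretches numbered 281, with a median width of 147 bp. The longest shared stretch was 2751 bp long and lay at SP5.

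Each domain was given a window of 1000 bp at its midpoint, to compare equal lengths. The same window was set in the 4566 SNF5 peaks of 1000 to under 3000 bp. Of these peaks, 3791 were under 2000 bp wide, so the window took in most of such a peak. In a domain it took in only the middle. The windows were thus equal in length but not in their distance from the peak edges. The window was overlapped by ARID2 in 77.3% of domains against 58.9% (Fisher exact tests, odds ratio 2.38, 95% interval 1.80 to 3.13; adjusted p = 5.33e-10), by ARID1A in 78.7% against 63.4% (2.13, 1.60 to 2.82; adjusted p = 5.87e-08) and by ARID1B in 53.0% against 43.1% (1.49, 1.18 to 1.88; adjusted p = 0.00116). All 3 lists reached the window in 40.3% of domains against 23.3% (2.22, 1.75 to 2.83; Fisher exact test, adjusted p = 6.58e-10). A transcript start lay in the window less often, in 44% against 52.4% (0.713, 0.564 to 0.903; Fisher exact test, adjusted p = 0.00502). These are two-sided Fisher exact tests over peaks, adjusted over 5 by the Benjamini-Hochberg method, and peaks are not replicates of a condition.

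The window differences depended on the comparison group. Against the 775 SNF5 peaks of 2000 to under 3000 bp alone, none of the 5 window differences passed the threshold (Fisher exact tests, adjusted p between 0.258 and 0.786), and the ARID1B difference changed sign, with log2 odds ratios of 0.34, -0.05 and 0.35 for ARID1A, ARID1B and ARID2. With a window of 2000 bp in the same comparison, the 4 ARID differences passed (Fisher exact tests, log2 odds ratios of 0.77, 0.815 and 0.69 in the order above and 1.02 with all 3 present; largest adjusted p 0.0279). That longer window took in most of each of the 775 peaks. When SNF5 peaks at most 1000 bp apart were joined first, the log2 odds ratios for the 1000 bp window fell from 1.09 to 0.244 for ARID1A, from 0.58 to 0.255 for ARID1B and from 1.25 to 0.623 for ARID2, and all 3 still passed (Fisher exact tests, largest adjusted p 0.0348). When SNF5 peaks scoring below 26, the domain median, were left out, no difference in the 1000 bp window passed (Fisher exact tests, adjusted p between 0.0665 and 0.861). Without chromosomes 2, 6, 14, 16, 17 and 20, ARID1A and ARID2 still passed (Fisher exact tests, adjusted p = 0.0222 and 0.00116), whereas ARID1B (log2 odds ratio 0.05), all 3 ARIDs (0.47) and the transcript start (-0.20) did not.

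The type of the ARID peaks in the domains differed from that in narrower SNF5 peaks. The authors classed each ARID peak as promoter, exon, intron or distal. In domains, 61.2% of ARID1A peaks (456 of 745) were of the promoter type against 76.1% of the 8414 in narrower SNF5 peaks (odds ratio 0.496, 0.424 to 0.579; Fisher exact test, adjusted p = 1.63e-17). ARID2 showed 57.9% against 71.6% (0.547, 0.473 to 0.633; Fisher exact test, adjusted p = 2.94e-15). ARID1B went the other way, with 54.8% against 45.5% (1.45, 1.22 to 1.72; Fisher exact test, adjusted p = 2.23e-05). The ARID1B difference did not pass when SNF5 peaks scoring below 26 were left out (Fisher exact test, log2 odds ratio 0.213, adjusted p = 0.25). The promoter type rests on nearness to a transcript start, and a wide domain at a start reaches farther from it than a narrow peak can. The promoter share can therefore fall with SNF5 width alone, and its part in these differences was not tested. ARID peaks in the same domain share a locus, so these peaks are not independent. With 1 ARID peak per SNF5 peak, the log2 odds ratios were -0.438 for ARID1A, 0.778 for ARID1B and -0.481 for ARID2. They stood in place of -1.01, 0.54 and -0.87, and all passed (Fisher exact tests, largest adjusted p 0.0266). The 3 lists lay closer together in promoter share inside domains than in narrower SNF5 peaks. The rest of the ARID1A peaks in domains were 17.6% intronic, 16.6% distal and 4.56% exonic, with similar splits for ARID1B (22.3%, 19.1% and 3.85%) and ARID2 (21.9%, 16.2% and 3.97%).

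Within a domain the types were often mixed. Of the 296 domains with an ARID peak, 156 (52.7%) held both promoter peaks and peaks of another type, 77 held promoter peaks only and 63 held none. The deposited chromatin state was active promoter for 59.5% for ARID1A, 42.4% for ARID1B and 57.6% for ARID2 in domains, and the more frequent of the strong enhancer states was given for 25.6%, 39.7% and 28.5%. The shares over the whole lists were not computed, so these values do not set the domains apart from other ARID peaks. In 206 domains all ARID peaks had a single nearest gene in the deposited annotation, in 74 they had 2 and in 16 they had at least 3, with 5 as the highest number.

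Peaks that the authors labelled as bound by multiple ARIDs were more frequent in domains. The share was 76.9% for ARID1A against 58.1% in narrower SNF5 peaks (Fisher exact tests, odds ratio 2.40, 2.01 to 2.86; adjusted p = 3.79e-24), 76.4% against 55.5% for ARID1B (2.6, 2.13 to 3.16; adjusted p = 4.93e-23) and 71.0% against 60.8% for ARID2 (1.58, 1.35 to 1.85; adjusted p = 5.79e-09). Against ARID peaks in SNF5 peaks of 1000 to under 3000 bp only, the log2 odds ratios were 0.871 for ARID1A, 0.909 for ARID1B and 0.357 for ARID2. They stood in place of 1.26, 1.38 and 0.66, and all passed (Fisher exact tests, largest adjusted p 0.00377). ARID peak width was not matched in these comparisons. For ARID2 the difference did not pass when SNF5 peaks scoring below 26 were left out (Fisher exact test, log2 odds ratio 0.14, adjusted p = 0.416) or within strata of score (Mantel-Haenszel test over peaks, 0.22, adjusted p = 0.0637), whereas ARID1A and ARID1B passed in both.

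ARID peaks in domains were also wider. Median widths were 350 bp for ARID1A, 211 bp for ARID1B and 266 bp for ARID2, against 263, 193 and 216 bp in narrower SNF5 peaks. Peaks of 500 bp or more made up 37.9% of ARID1A peaks against 21.5% (Fisher exact tests, odds ratio 2.23, 1.90 to 2.61; adjusted p = 1.03e-21), 26.0% against 13.3% of ARID2 peaks (2.28, 1.93 to 2.70; adjusted p = 1.46e-19) and 15.2% against 9.54% of ARID1B peaks (1.70, 1.34 to 2.17; adjusted p = 3.90e-05). Against ARID peaks in SNF5 peaks of 1000 to under 3000 bp only, the log2 odds ratios for wide peaks were 0.622 for ARID1A, 0.388 for ARID1B and 0.722 for ARID2 in place of 1.16, 0.77 and 1.19, and all passed (Fisher exact tests, largest adjusted p 0.0416). These 9 comparisons of ARID peaks were two-sided Fisher exact tests adjusted together. Few ARID peaks spanned much of a domain, as 1 ARID1A peak covered at least 50% of the width in 13 domains, 1 ARID2 peak in 7 and 1 ARID1B peak in 1. When chromosomes 2, 6, 14, 16, 17 and 20 were left out, the difference in wide peaks did not pass for ARID1B (Fisher exact test, log2 odds ratio 0.49, adjusted p = 0.26).

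**Figure D2:**
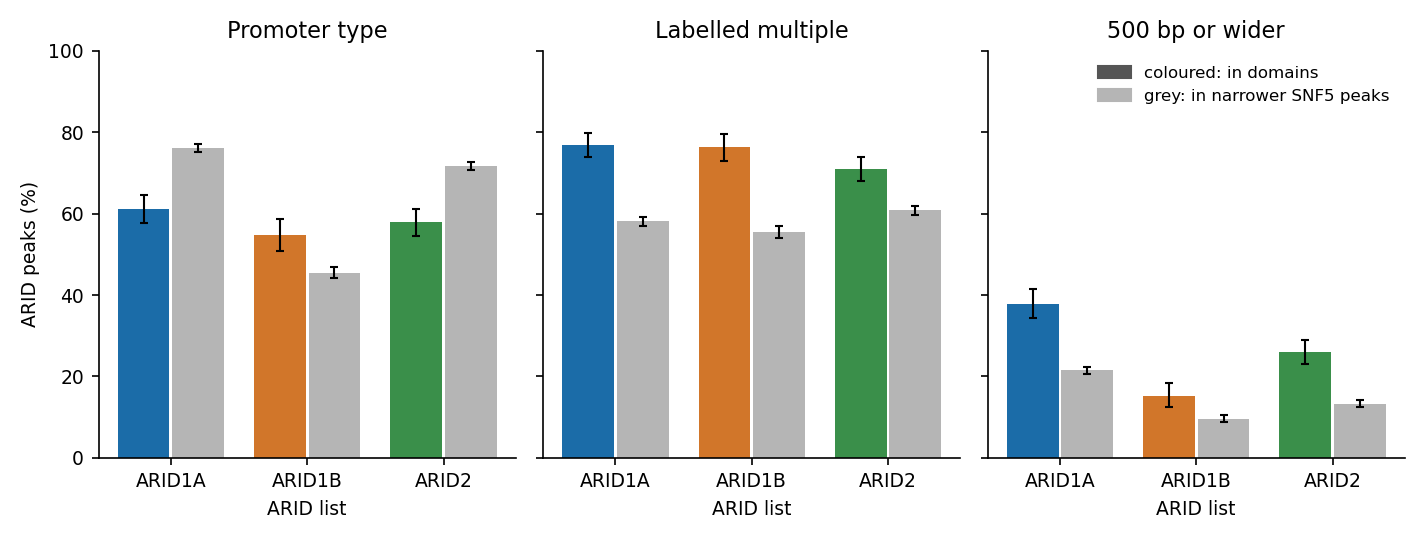
Shares (%) of ARID peaks of the promoter type (left), labelled multiple (middle) and at least 500 bp wide (right), for ARID peaks in domains (coloured) and in narrower SNF5 peaks (grey); bars are shares over peaks and error bars are Wilson 95% intervals. The promoter share is lower in domains for ARID1A and ARID2 and higher for ARID1B, and the other shares are higher in domains for all 3 lists.

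ARID peaks were spread along the whole domain. The position of a peak was the midpoint of its part inside the domain. These midpoints fell in the middle 50% of the width in 55.0%, 55.9% and 53.7% of cases for ARID1A, ARID1B and ARID2. No pair of lists was found to differ, with odds ratios of 0.964 for ARID1A against ARID1B (95% interval 0.776 to 1.20), 1.05 for ARID1A against ARID2 (0.864 to 1.29) and 1.09 for ARID1B against ARID2 (0.885 to 1.35; Fisher exact tests, adjusted p = 0.741 for each of the 3). The outermost 10% of the width at each end held the fewest midpoints, with 51 and 55 of 745 for ARID1A, 36 and 42 of 597 for ARID1B, and 68 and 55 of 832 for ARID2. A peak that lies wholly inside a domain cannot have its midpoint at the edge, and 684, 579 and 768 peaks lay wholly inside. Neighbouring midpoints of whole peaks of the same list were a median of 944 bp apart for ARID1A, 885 bp for ARID1B and 897.5 bp for ARID2.

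**Figure D3:**
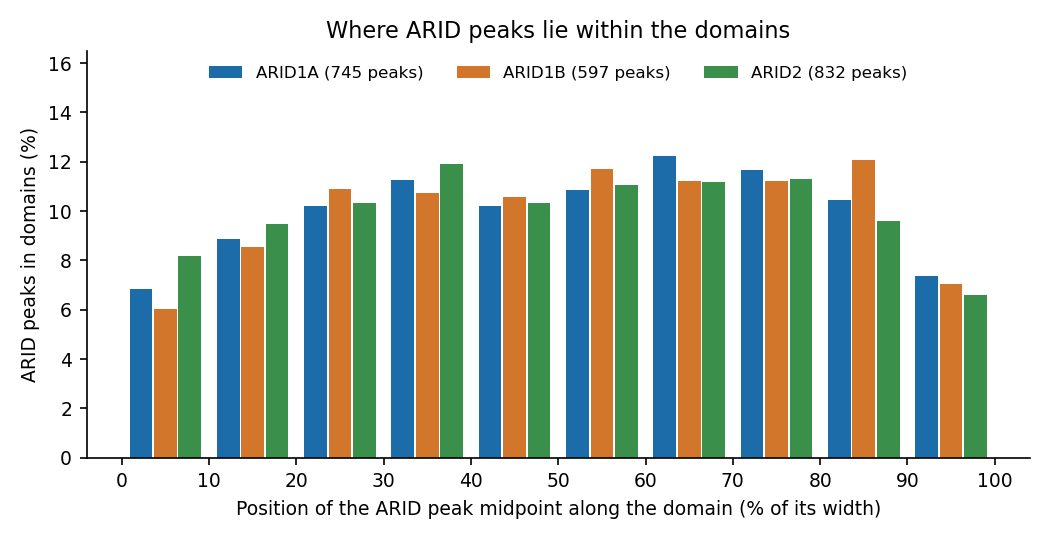
Position of ARID peak midpoints along the domains in bins of 10% of the domain width (x axis) as a share of each list's peaks in domains (y axis, %), for 745 ARID1A, 597 ARID1B and 832 ARID2 peaks. The midpoint is that of the part of the peak inside the domain. Midpoints of every list fall in every bin, with the fewest in the first and the last.

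Most domains included a gene start. A main start is that of a gene's transcript tagged as canonical in the annotation. The main start of a protein-coding gene lay in 176 domains (58.7%), and 29 of these held more than a single such start. The share climbed with width, from 42.3% of SNF5 peaks of 1000 to under 2000 bp to 50.3% of those of 2000 to under 3000 bp. Another 67 held other transcript starts only, which can be other starts of a protein-coding gene. A further 27 lay within a protein-coding gene without a start, and 30 lay outside genes. All 3 ARIDs were present in 83.0%, 82.1%, 66.7% and 73.3% of these classes in turn. ARID1A occupied 97.7% of the domains at protein-coding starts and 74.1% of those within genes, ARID1B 84.7% and 85.2%, and ARID2 97.2% and 81.5%. The 4 classes also differed in base composition, with median GC contents of 55.9%, 52.7%, 43.0% and 46.4%. In domains at protein-coding starts 71.4% of 1371 ARID peaks were of the promoter type. The shares were 54.8% of 496 with other starts only, 6.38% of 141 within genes and 3.01% of 166 outside genes. The promoter type and these classes both rest on transcript starts, so this contrast largely follows from how they were defined.

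The next values are for the 147 domains with exactly 1 main start of a protein-coding gene. The domain reached a median of 1634 bp upstream and 2157 bp downstream of this start, and 87 reached farther downstream. ARID1A midpoints lay within 500 bp of the start in 35.4% of cases, ARID1B midpoints in 30.0% and ARID2 midpoints in 25.4%. More than 1000 bp downstream lay 26.2% of ARID1A, 32.0% of ARID1B and 32.7% of ARID2 midpoints. These shares were not tested.

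The domain at VMP1 and MIR21 held the most ARID peaks, with 10 of ARID1A, 7 of ARID1B and 11 of ARID2, and 69.5% of its bases lay under them. The types changed along its length. The peaks up to 1951 bp from the left end were promoter or exon peaks assigned to VMP1, those between 2680 and 5024 bp were promoter or exon peaks assigned to MIR21, and those from 5399 bp on were mostly distal, assigned to MIR21 and then to a U6 gene. In total 12 were promoter, 3 exon and 13 distal peaks, and 25 of 28 were labelled multiple. Between 1334 and 5024 bp the domain held ARID1A and ARID2 peaks and no ARID1B midpoint.

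The second domain (chr2:43445206-43455450, 10245 bp) covered ZFP36L2, which encodes an RNA-binding protein that promotes decay of AU-rich messenger RNA. Its 19 ARID peaks were 6 of ARID1A, 5 of ARID1B and 8 of ARID2, all assigned to ZFP36L2. A single ARID1A peak of 3942 bp, the widest ARID1A peak in any domain, extended over the gene start. In the ID1 domain, the widest ARID2 peak in any domain (3929 bp) and an ARID1B peak of 2053 bp overlapped at the gene, and 9 of the 13 ARID peaks were distal, assigned to MIR3193. Its 13 peaks were 4 of ARID1A, 6 of ARID1B and 3 of ARID2.

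The ZNF217 domain (chr20:52205000-52213749, 8750 bp) stood out for its unequal lists. ZNF217 encodes a zinc finger transcription factor. The domain held a single ARID1A peak, 2114 bp wide and centred 5600 bp in, near the gene start, against 8 ARID1B and 8 ARID2 peaks that ran from 638 to 8196 bp. Its peaks were 5 of the promoter type and 12 intronic. AJUBA (7257 bp, chromosome 14), which encodes a LIM-domain scaffold protein, carried 4, 3 and 7 peaks of ARID1A, ARID1B and ARID2 over 83.7% of the domain.

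**Figure D4:**
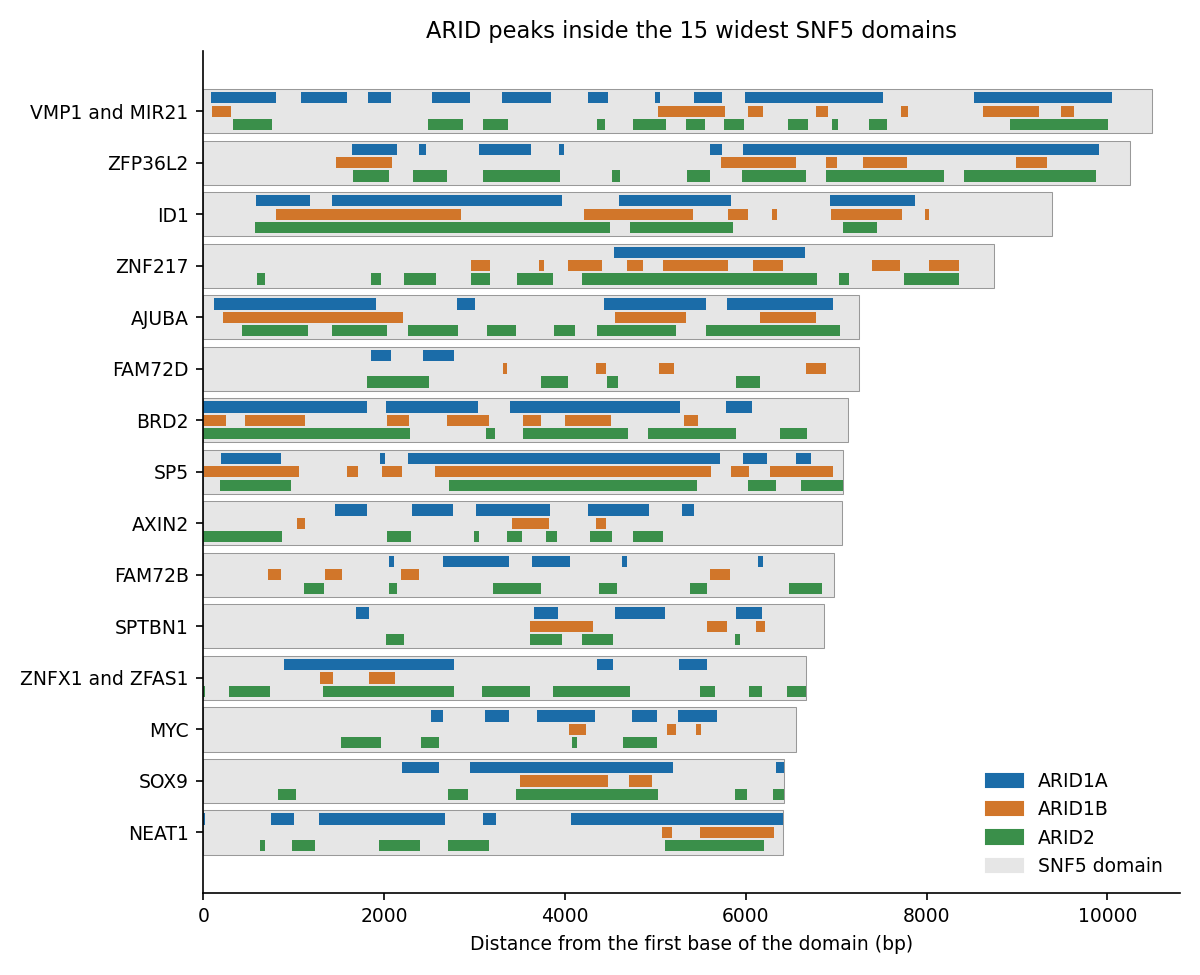
Peaks of ARID1A (blue), ARID1B (orange) and ARID2 (green) inside the 15 widest SNF5 domains (grey bars), each drawn to scale from the first base of the domain (x axis, bp) and cut at its edges. The MIR21 domain carries 28 ARID peaks and the ZNF217 domain a single ARID1A peak beside 8 of each other list.

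SP5 (7071 bp, chromosome 2), a zinc finger factor induced by WNT, carried 5 ARID1A, 6 ARID1B and 4 ARID2 peaks over 86.2% of its domain, and the widest ARID1B peak in any domain (3049 bp) lay there over the gene start beside an ARID1A peak of 3448 bp and an ARID2 peak of 2751 bp. AXIN2 (7060 bp, chromosome 17), a negative regulator of the pathway, carried 5, 3 and 7 peaks, of which 14 of 15 were of the promoter type. MYC (chr8:128745919-128752470, 6552 bp), a growth-promoting transcription factor, held 5, 3 and 4 peaks with 4 of the promoter, 3 of the exon and 5 of the intron type. Only 38.1% of its bases lay under an ARID peak.

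BRD2 (7134 bp, chromosome 6), which encodes a reader of acetylated histones, had 4 ARID1A, 7 ARID1B and 5 ARID2 peaks over 87.0% of its domain, and 15 of 16 were promoter peaks. SOX9 (6418 bp, chromosome 17), a transcription factor of bile duct and progenitor cells, held 3, 2 and 5 peaks, only 2 of which were of the promoter type, and all 3 lists overlapped within the gene over 966 bp. NEAT1 (6407 bp, chromosome 11), the long noncoding RNA that scaffolds paraspeckles, held 5, 2 and 5 peaks, 8 of them distal and upstream of the RNA. The domain in SPTBN1 (6864 bp, chromosome 2), a spectrin gene, held 4, 3 and 4 peaks over 34.7% of its bases. The domain at ZNFX1 and the snoRNA host ZFAS1 (6672 bp, chromosome 20) held 3, 2 and 8 peaks, so that ARID2 predominated there.

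Of the 15 widest domains, 2, at FAM72D (7252 bp) and FAM72B (6971 bp) on chromosome 1, have near-identical copies elsewhere in the genome. Some of their reads may therefore not be placed with certainty, which was not tested. FAM72D held 2, 4 and 4 ARID peaks and FAM72B 5, 4 and 6, and 3 of 10 and 5 of 15 were labelled multiple. Such copies were found for 27 of the 300 domains. They included 3 domains of the 5S ribosomal RNA cluster, the heat shock genes HSPA1A and HSPA1B, and snoRNA genes of the SNORD3 family. ARID1A, ARID1B and ARID2 overlapped 25, 26 and 25 of these 27. The widest 5S domain (6323 bp) ranked among the 5 with the most ARID peaks, with 7, 7 and 2 peaks of ARID1A, ARID1B and ARID2.

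The 3 highest scores belonged to domains narrower than the lower quartile of 3252 bp. The top score, 53, lay on chromosome 14 near RNU1-8, a U1 RNA gene, in a domain of 3210 bp that has a near-identical copy. It was followed by 47 at WDR74 and RNU2-2P, named for U2 RNA, on chromosome 11 (3015 bp), with 3, 2 and 3 ARID peaks. Next came 45 in IWS1 on chromosome 2 (3087 bp), with 1, 4 and 1. The deposited annotation assigned the ARID peaks of the IWS1 domain to AC010976.2. The nearest protein-coding main start, that of PROC, which encodes the anticoagulant protein C, lay outside the domain. A link of the domain to PROC was not tested. All 6 ARID peaks of that domain were intronic.

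Of protein-coding genes in the annotation, 210 of 19869 (1.06%) had their main start in a domain. Among 20 hepatocyte transcription factors 2 did (10.0%), CEBPB and FOXA2. The CEBPB domain (5491 bp) held 5 ARID1A, 6 ARID1B and 4 ARID2 peaks, 8 of them distal, and the FOXA2 domain (3637 bp) held 3, 3 and 3, with 7 of the promoter type. Among 17 genes of plasma proteins and apolipoproteins APOB did (5.88%), in a domain of 4361 bp with 5, 4 and 5 peaks, of which 9 were intronic. APOC3 had another transcript start in a domain of 3389 bp with 2 ARID1A peaks, no ARID1B peak and 1 ARID2 peak. Among 22 immediate early and AP-1 genes IER3 and ZFP36L2 did (9.09%), and the IER3 domain (3619 bp) held 2, 3 and 2 peaks, all promoter and all labelled multiple. None of 21 genes for SWI/SNF subunits started in a domain. These counts of 2 or fewer genes were not tested.

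Of 69 histone genes chosen by their symbols, 12 (17.4%) started in a domain, in 6 domains on chromosomes 1 and 6. These genes lie in clusters and share domains, so they are not independent. The domain at H2AC6 and H2BC4 (6080 bp) held 5 ARID1A, 4 ARID1B and 5 ARID2 peaks. The domain at H2AC7 and H3C4 (5168 bp) held 4, 4 and 5, all of the promoter type. H2BC3 and H3C3 (3196 bp) had 4, 3 and 3 peaks over 85.0% of their domain. The domains at H2AC19 and H3C15 and at H3C14 are among those with a near-identical copy. Of 3670 small RNA genes, 21 had any transcript start in a domain. They included genes of 5S and U6 RNA, and RNU1-28P (U1) and RNU2-2P (U2), which carry pseudogene symbols. For 4 of the 21, all of the SNORD3 family, this was a main start by the canonical tag (0.109% of the 3670). A gene without that tag on its transcripts is not in this count, so the count depends on the tag. Of the 2 long noncoding RNA genes listed, NEAT1 had its main start in a domain. The widest domains without any transcript start were 6235 bp near PTP4A1, with 2 ARID1A, 2 ARID1B and 3 ARID2 peaks, and 6013 bp in PTPRK, which encodes a receptor phosphatase, with 2, 4 and 3. A domain of 5066 bp in FN1, the gene of fibronectin, held 3, 2 and 4.

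The motif counts were made in 200 bp at the midpoint of every ARID peak, on both strands. The AP-1 motif TGANTCA was present in 5.10% of ARID1A (95% interval 3.74 to 6.92), 6.53% of ARID1B (4.82 to 8.81) and 5.05% of ARID2 windows in domains (3.76 to 6.75), against 4.37%, 6.70% and 4.44% of all ARID windows. The FOXA motif TGTTTAC was present in 3.36%, 2.68% and 3.37% against 2.44%, 4.09% and 2.94%. The ETS motif CCGGAAG was present in 3.49% (2.39 to 5.06), 2.35% (1.40 to 3.90) and 2.28% (1.47 to 3.54) against 7.38%, 3.45% and 5.61%. For promoter peaks alone it was present in 4.61%, 3.06% and 2.90% in domains against 9.27%, 6.75% and 7.58% of all promoter peaks, and for the other types in 1.73%, 1.48% and 1.43% against 2.36%, 1.44% and 1.61%. For ARID1B the interval over all types included the share of all ARID1B windows. The SP and KLF motif GGGGCGGG was present in 12.8%, 7.54% and 11.1% against 16.4%, 6.85% and 11.4%. ARID peaks in domains were wider than those in narrower SNF5 peaks, so the 200 bp window took in a smaller part of many of them. A match outside the window was not counted. A match is a description of the sequence only, and these shares were not tested.

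The domains were unevenly spread over the chromosomes. On chromosomes 2, 6, 14, 16, 17 and 20 lay 208 of the 300 domains (69.3%), but 38.9% of all SNF5 peaks. The share of SNF5 peaks that were domains was 3.04% on chromosome 2 (exact 95% interval 2.35 to 3.86), 2.97% on 20 (1.97 to 4.30), 2.45% on 14 (1.41 to 3.95), 2.41% on 6 (1.69 to 3.32), 2.30% on 17 (1.61 to 3.19) and 2.14% on 16 (1.44 to 3.05). On every other chromosome it was at most 1.19%, the value of chromosome 1 (0.758 to 1.79), and chromosome 21 had 0 domains among 121 SNF5 peaks, for which the exact 95% interval reaches 3.0% and a limit of 3 counts 2.48%.

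Other measures moved with these chromosomes. The median SNF5 width was 602 bp on the 6 chromosomes and 504 bp on the others, while the median score was 19 and 20. ARID peaks, called from separate libraries, were wider there as well. Of ARID1A peaks 21.6% to 24.8% were at least 500 bp wide on each of the 6 chromosomes, and at most 16.1% on any other. The ranges were 13.8% to 17.3% against at most 8.40% for ARID2, and 7.60% to 10.4% against at most 6.76% for ARID1B. Over the 22 autosomes the share of domains and the share of wide ARID peaks had Spearman correlations of 0.758, 0.868 and 0.813 and Pearson correlations of 0.933, 0.942 and 0.919 for ARID1A, ARID1B and ARID2, with the cell line and the peak caller in common. HepG2 cells are aneuploid, the copy number of each chromosome was not analysed here, and its part in the widths was not tested. Within chromosomes (Mantel-Haenszel), all 14 window and ARID peak differences kept their direction and passed (largest adjusted p 0.0164).

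**Figure D5:**
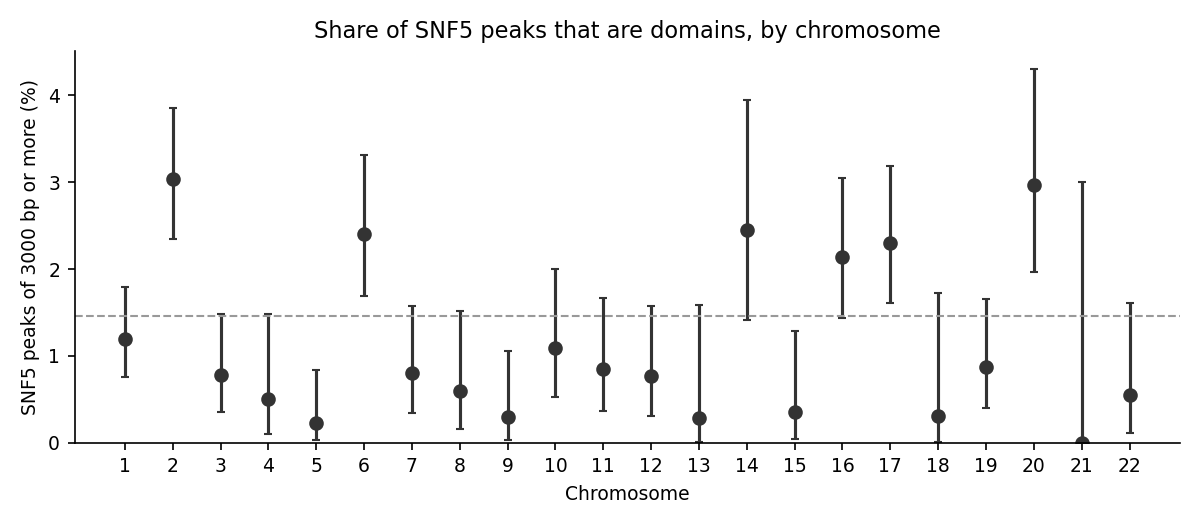
Share of SNF5 peaks that are at least 3000 bp wide (y axis, %) on each autosome (x axis), with exact 95% binomial intervals and the share over all autosomes as a dashed line. Chromosomes 2, 6, 14, 16, 17 and 20 lie between 2.14% and 3.04%, and all others at or below 1.19%.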

How the data were processed

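Per the study's methods, the authors aligned single-end ChIP-seq reads of both experiments to hg19 with Bowtie2, removed duplicates, merged the 2 replicates of each antibody, called broad peaks with MACS2, joined neighbouring peaks and removed blacklisted regions. The deposited lists give peak boundaries in bp, for SNF5 a whole-number score in the deposited list, whose meaning is not given in the sources used here, and for the ARIDs a feature class, nearest gene with its distance, single or multiple label and chromatin state. The deposited score was used only to rank, to stratify and, in an alternative, to leave out SNF5 peaks scoring below 26. Depth is unknown, and the input library was not used here. How widths were joined bears on membership, as a join of peaks up to 1000 bp apart gave 780 regions of 3000 bp or more.

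Starts are printed counted from 1. Genes came from Gencode 44 lifted to GRCh37, the assembly of hg19. Near-identical copies (at least 1000 matching bases at 95% identity) were found with minimap2 2.31. Tests were two-sided Fisher exact tests (scipy 1.17.1) with Benjamini-Hochberg adjustment over 5 window, 9 ARID peak and 3 position comparisons, threshold 0.05, and odds ratios have Wald intervals. Shares carry Wilson 95% intervals. The functions were tested on simulated data. An overlap is at least 1 bp.

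Domains named in the text are the 15 widest, the 5 with the most ARID peaks, the 3 of highest score, the 3 next to the threshold on each side and those with a start of a listed gene. Domains with 1 or no ARID list, those with copies and those without a transcript start were picked out after their values were seen. The members, lists and rules were chosen with earlier results of these data known. The sequence of 1 further peak is not reported here.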

Additional observations from a re-analysis of the deposited data

How the results depend on the processing

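The 17 test results were recomputed under the alternatives that apply to each, which gave 209 values, 167 from the settings listed at the outset and 42 from those added after seeing the data. Of these values, 182 kept their direction and side of the threshold. The added ones were tests within chromosomes, within strata of score and without chromosomes 2, 6, 14, 16, 17 and 20. Values here are log2 odds ratios. No paired analysis was possible because both replicates of each antibody were merged before peak calling, and for the same reason no replicate was left out. The alternative limited to SNF5 peaks with few soft-masked bases (5 results) was not run, since the genome used carries no masking. The cause of the changes below was not tested.

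Against SNF5 peaks of 2000 to under 3000 bp, the centre window gave 0.34 for ARID1A, 0.35 for ARID2, 0.185 for all 3 ARIDs and -0.38 for a transcript start, none past the threshold, and ARID1B reversed at -0.054. With a 2000 bp window in that comparison the transcript start gave -0.017 and did not pass, whereas the 4 ARID results did. With a 500 bp window ARID1B gave 0.35, and for domains of 4000 bp or more the transcript start gave -0.44, and neither passed. With SNF5 peaks of a score at or above the domain median, the window gave 0.58 for ARID1A, 0.66 for ARID2, 0.49 for all 3 and -0.63 for the transcript start, and ARID1B reversed at -0.041. The promoter share of ARID1B (0.21) and the multiple share of ARID2 (0.14) did not pass either. Without chromosomes 2, 6, 14, 16, 17 and 20, ARID1B (0.051), all 3 ARIDs (0.47), the transcript start (-0.20) and the share of ARID1B peaks of 500 bp or more (0.49) lost their calls. Within strata of score, ARID1B in the window (0.10) and the multiple share of ARID2 (0.22) did.

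The position differences, none of which passed, changed sign when SNF5 peaks were joined (0.01, -0.034 and -0.044 for ARID1A against ARID1B, ARID1A against ARID2 and ARID1B against ARID2), with 1 ARID peak per domain and list (0.39 for ARID1A against ARID1B) and with the middle one of 3 equal parts of the width (0.074 for ARID1A against ARID1B and -0.046 for ARID1B against ARID2).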
